A study of Mus musculus with 89 samples.

Results

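The 34 genes of cholesterol and fatty acid synthesis and their regulators were followed, step by step, through 89 single cells of the mouse dentate gyrus. The members came from a list of pathway genes, and all 34 were found among the 24411 genes of the deposited tables. They comprised 7 enzymes of the mevalonate pathway, 3 enzymes of the squalene steps, 8 enzymes of the later sterol steps, 7 regulators and 9 enzymes of fatty acid synthesis, elongation and desaturation. The first 18 of these are called the sterol enzymes here.

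Cells make cholesterol from acetyl-CoA. The mevalonate pathway yields isoprenoid units, which are joined to squalene, closed to lanosterol and trimmed in a series of sterol steps. The SREBP transcription factors, made by Srebf1 and Srebf2, are escorted by Scap and held back by the Insig proteins when sterol is plentiful, and once released they switch on the synthesis enzymes. The brain makes nearly all of its own cholesterol, largely in glia, and fatty acid synthesis by Fasn is known to be needed for the proliferation of adult neural stem cells in mice.

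The cells came from homozygous Nestin:CFPnuc mice with C57BL/6 as the labelled strain (line B6.Cg-Tg(Nes-CFP)1Enik/J), in which regulatory sequence of the Nestin gene drives a nuclear cyan fluorescent protein; cells of both ages carried it. Dentate gyri were dissociated, live single cells were picked by flow sorting after propidium iodide staining, and full-length cDNA was made with the SMART-Seq v4 kit. The animals were 4.5 months old for 41 cells and 2 months old for 48 cells. The deposited table of groups gave each cell a class: 11 IPC cells (6 at 4.5 months and 5 at 2 months), 18 aNSC cells (7 and 11) and 60 qNSC cells (28 and 32), read here as intermediate progenitor cells and as activated and quiescent neural stem cells. It split the qNSC cells by colour into 9 blue (5 and 4), 25 green (10 and 15) and 26 red (13 and 13) cells. What the colours stand for, how the classes were assigned, how many animals were used and which cell came from which animal are not given in the sources used here. Each age therefore counts as 1 sample, no test was run, and an SD below is the spread over cells.

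The libraries held 234607 to 1896072 estimated counts (median 912391) and 2156 to 6046 detected genes. Median totals were 865574 in qNSC cells at 4.5 months and 1051924.5 at 2 months. Xist or Tsix reached 10 reads in 37 of the 41 older cells and in 0 of the 48 younger ones, and Y-linked genes did so in 0 of the older and 38 of the younger cells. Age and sex therefore cannot be told apart in any age comparison below, and Nsdhl and Ebp are X-linked. All 8 astrocyte markers, only some of which quiescent stem cells of the dentate gyrus share, were read in qNSC cells. Their summed level was 9518 to 37575 CPM (counts scaled to 1000000 per cell) at 4.5 months and 8633 to 35305 CPM at 2 months. S100b, among the 8, reached 10 reads in 6 of 25 green, 20 of 26 red and 6 of 9 blue cells. Stem cell markers had a median sum of 4395 CPM in green, 2493 CPM in red and 1609 CPM in blue cells. Whether some qNSC cells are astrocytes was not tested. Among the aNSC cells, 7 had 10 or more reads of Pdgfra, the receptor that marks oligodendrocyte precursors; all 8 precursor markers were read in them, summing to 7719 to 17300 CPM, and 0 of 5 IPC markers. In the other 11 aNSC cells precursor markers summed to 0 to 212 CPM, with Pdgfra, Sox10, Neu4 and Lhfpl3 at 0. One green qNSC cell at 4.5 months held 44752 CPM of oligodendrocyte markers, against at most 1649 CPM in any other cell; it had reads of 8 sterol enzymes and 0 reads of Sqle. Leaving it out ended none of the 6 calls by age in qNSC cells and none of the 3 in all cells given below.

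Levels are comparable between genes only per transcript length, so the deposited TPM, which divide by length, are used for their order in the 60 qNSC cells. Thrsp, a small protein linked to lipogenesis in liver and grouped here with the regulators, had the highest mean at 2427 ± 2348 TPM (SD over cells). Msmo1, which removes the C4 methyl groups of sterols, followed at 1291 ± 1024 TPM, Elovl5, which elongates polyunsaturated fatty acids, at 494 ± 389 TPM and Fads2, a desaturase of the same chains, at 322 ± 272 TPM. These 4 genes were read in 53 to 58 of the 60 cells. Fdps, Idi1, Scd2, Fdft1, Sc5d, Sqle and Hmgcs1 lay between 164 and 271 TPM, a range far narrower than their own SDs of 179 to 336 TPM, so that their order is not resolved. Fasn, the fatty acid synthase itself, averaged 10.4 ± 22.2 TPM, and Acaca, which makes its substrate malonyl-CoA, 0.879 ± 3.75 TPM. Low too were Lss, the cyclase that makes lanosterol, at 5.54 ± 21.2 TPM and Hsd17b7 at 5.40 ± 25.6 TPM. Stard4, a sterol carrier, averaged 1.27 ± 8.85 TPM and had a read in 3 of all 89 cells. Enzymes that act in the same chain thus differed widely in mRNA level.

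**Figure D1:**
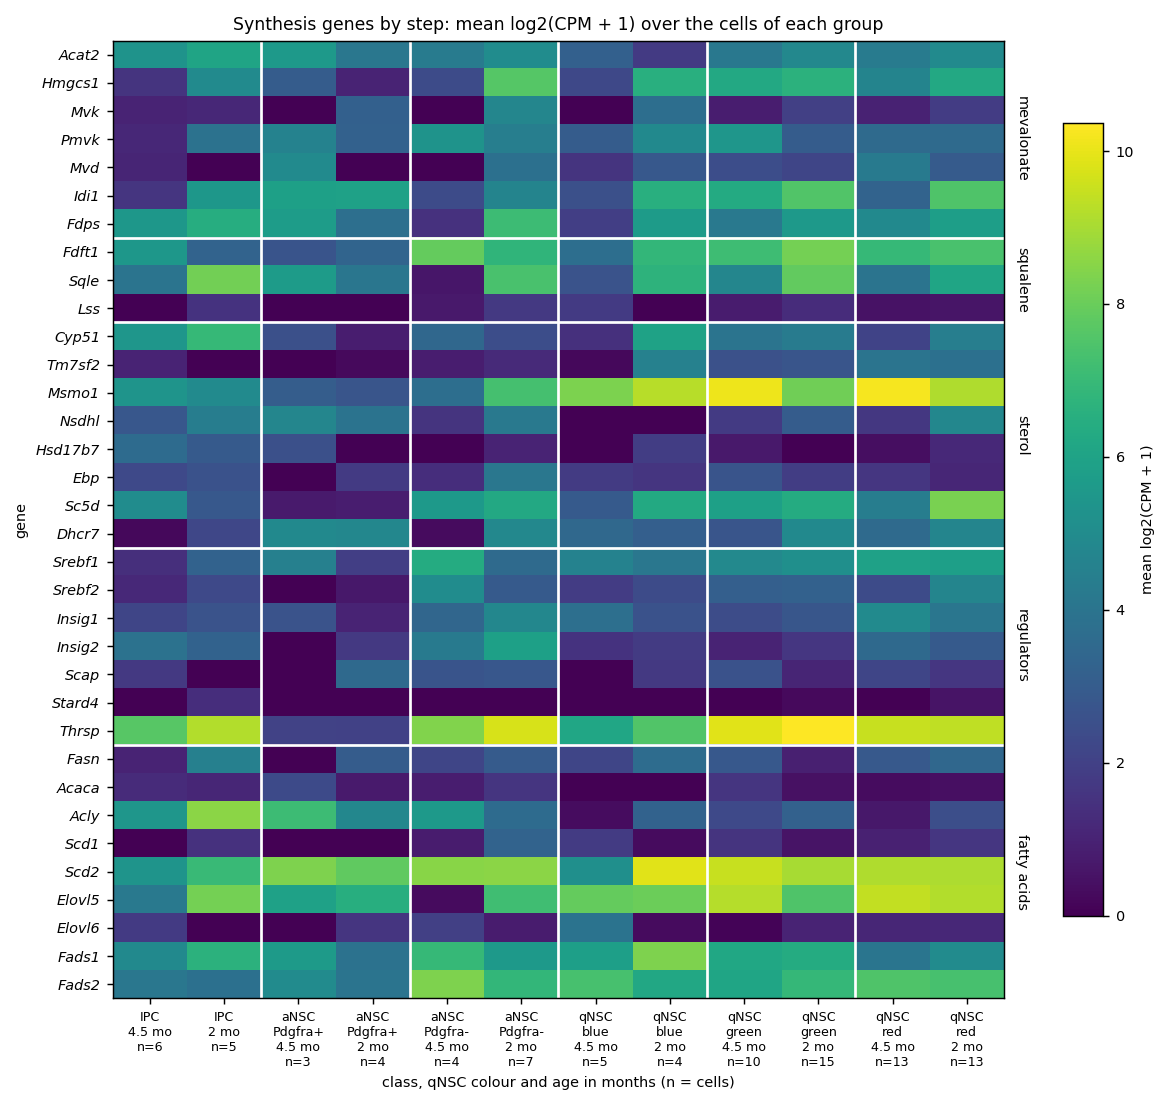
Mean log2(CPM + 1) of the 34 genes (rows, by step) in each class, qNSC colour and age (columns, with the number of cells). Thrsp, Msmo1, Scd2 and Elovl5 are the bright rows in green and red qNSC cells, and Msmo1 and Thrsp are dark in the Pdgfra-positive aNSC cells.

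The promoters were examined for the motifs through which the pathway is classically regulated, and 4 are shown because the results below turn on these genes: Msmo1 for its level and its class difference, Cyp51 and Nsdhl for age, and Hmgcs1 because it holds the sterol regulatory motif. Each runs from 250 bases before to 50 bases after the RefSeq start, 5′ to 3′ on the gene's strand (GRCm38.p6). Capitals mark the letters TCACNCCA (the core of the sterol regulatory element) and CCAAT (the box bound by NF-Y), found on either strand.
Hmgcs1: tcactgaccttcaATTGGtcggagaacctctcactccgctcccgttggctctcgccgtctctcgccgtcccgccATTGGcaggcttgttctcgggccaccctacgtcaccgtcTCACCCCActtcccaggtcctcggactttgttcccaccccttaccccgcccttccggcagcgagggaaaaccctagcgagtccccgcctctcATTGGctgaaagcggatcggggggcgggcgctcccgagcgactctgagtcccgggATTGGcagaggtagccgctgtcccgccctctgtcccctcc
Msmo1: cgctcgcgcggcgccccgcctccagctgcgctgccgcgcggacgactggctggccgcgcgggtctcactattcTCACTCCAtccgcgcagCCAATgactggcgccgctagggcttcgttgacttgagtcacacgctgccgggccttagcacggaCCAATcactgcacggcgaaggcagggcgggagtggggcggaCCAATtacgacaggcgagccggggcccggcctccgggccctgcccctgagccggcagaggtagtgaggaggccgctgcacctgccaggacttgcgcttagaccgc
Cyp51: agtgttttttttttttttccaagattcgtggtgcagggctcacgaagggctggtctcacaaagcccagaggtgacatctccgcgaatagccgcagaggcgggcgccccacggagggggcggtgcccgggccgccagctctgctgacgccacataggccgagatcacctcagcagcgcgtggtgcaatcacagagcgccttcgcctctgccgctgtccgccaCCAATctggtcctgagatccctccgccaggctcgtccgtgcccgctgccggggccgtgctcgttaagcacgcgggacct
Nsdhl: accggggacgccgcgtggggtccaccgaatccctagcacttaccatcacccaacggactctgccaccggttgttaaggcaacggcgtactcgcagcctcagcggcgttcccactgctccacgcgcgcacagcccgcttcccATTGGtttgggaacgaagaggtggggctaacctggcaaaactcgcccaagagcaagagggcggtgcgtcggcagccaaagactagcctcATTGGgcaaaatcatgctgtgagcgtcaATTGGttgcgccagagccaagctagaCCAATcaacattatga
They lie at chr13:119690101-119690400 on the plus strand (Hmgcs1), chr8:64733529-64733828 on the minus strand (Msmo1), chr5:4104648-4104947 on the minus strand (Cyp51) and chrX:72918271-72918570 on the plus strand (Nsdhl). The table of promoters held 35 promoters of 27 members; Sqle, Fdps, Fdft1, Stard4, Fads1, Scd1 and Scd2 were not in it. TCACNCCA was found in 3 of these 35, those of Hmgcs1, Msmo1 and Srebf2, and in 4.36% of all 32851 promoters. CCAAT was found in 23 of 35, and in 14 of the 18 promoters of sterol enzymes, against 37.4% of all promoters. GGGCGG, the GC box, was found in 25 of 35 and in 15 of 18 against 35.7%, and CACGTG, the E-box, in 7 of 35 and in 3 of 18 against 7.15%. All motifs were searched on both strands, and GC boxes and E-boxes are not capitalised. A match is a description of the letters and no proof of binding.

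Whether synthesis genes differ between 4.5 and 2 months was asked first in qNSC cells, where the class is held. The 6 genes called, 5 of them sterol enzymes, were lower at 4.5 months. They were Sqle, Nsdhl, Cyp51, Dhcr7 and Mvk, with Acly, which makes cytosolic acetyl-CoA for both pathways. None was higher. A gene was called when its mean log2(CPM + 1) differed by at least 1 and its CPM from summed counts at least 2-fold in the same direction, among genes with a read in 10% or more of the cells at 1 age or both. Of the 34 members, 32 met that minimum; 0 were called higher and 6 lower, against 2.78% higher and 6.09% lower of all 10058 genes measured. Differences are in mean log2(CPM + 1), 4.5 minus 2 months. Their median over the 32 members was -0.51, with 19 lower, and over all genes -0.13; over the 17 measured sterol enzymes it was -1.36, with 13 lower. The median was 0.06 over the 6 measured regulators and 0.26 over the 9 fatty acid genes. In cells thinned to equal depth the median over the members was -0.18, against -0.09 over all genes. It was -0.14 against -0.06 in cells of at least 500000 counts, and -0.29 against -0.09 without blue cells.

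Sqle, which oxidises squalene and is a control point of the pathway, showed the greatest called difference (ENSMUSG00000022351.14, chr15:59315077-59331192). It ranged from 0 to 1156 CPM at 4.5 months (median 8.04) and from 0 to 1800 CPM at 2 months (median 324). Its mean log2(CPM + 1) was 4.01 ± 3.90 at 4.5 months and 7.0 ± 3.48 at 2 months (SD, n = 28 and 32), a difference of -2.99. Reads were found in 57.1% of cells at 4.5 months (95% interval 37.2 to 75.5) and in 84.4% at 2 months (67.2 to 94.7), and the summed counts gave 146.5 CPM (141.7 to 151.5) and 428.9 CPM (421.7 to 436.2). The intervals of the summed counts cover the counting of reads only, and not the spread over cells or animals. The cells of the ages overlapped over nearly the whole range. Fewer cells with a read, and a lower level, were both seen at 4.5 months.

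Nsdhl, the X-linked C4 decarboxylase that follows Msmo1 (chrX:72918557-72958514), ranged from 0 to 254 CPM at 4.5 months (median 0) and from 0 to 455 CPM at 2 months (median 0.411). It was read in 21.4% of cells at 4.5 months and 50% at 2 months, with means of 1.41 ± 2.94 and 3.36 ± 3.80 and a difference of -1.95. Cyp51, the lanosterol demethylase (chr5:4081145-4104746), ranged from 0 to 749 CPM at 4.5 months (median 0) and from 0 to 1234 CPM at 2 months (median 86.3). It was read in 35.7% of cells at 4.5 months and 59.4% at 2 months, and differed by -1.92, with 98.9 summed CPM at 4.5 months and 211.6 at 2 months. Exons of Cyp51 overlap Akap9 on the opposite strand, and no strand setting of the counting is given in the sources used here. For both genes fewer cells had a read at 4.5 months, and the cells with a read overlapped between the ages.

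Dhcr7, the last enzyme of the pathway (chr7:143823145-143848410), ranged from 0 to 921 CPM at 4.5 months (median 9.55) and from 0 to 529 CPM at 2 months (median 84.0), a difference of -1.36 in mean. Its highest single cell was a 4.5-month cell, although its summed CPM was 48.8 at 4.5 months and 119.2 at 2 months. Mvk, mevalonate kinase (chr5:114444269-114460591), was read in 17.9% of cells at 4.5 months and in 31.2% at 2 months, with 15.9 and 56.8 summed CPM and a difference of -1.36. Acly (chr11:100476353-100528000) was read in 21.4% and 43.8% of cells at 4.5 and 2 months, ranged up to 421 CPM at 4.5 months and 1137 CPM at 2 months, and differed by -1.74. Leaving out each of the 60 cells in turn gave 5 to 7 members called lower and 0 higher; 2 of these omissions ended the call of Cyp51, 3 that of Nsdhl and 0 those of the other 4.

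**Figure D2:**
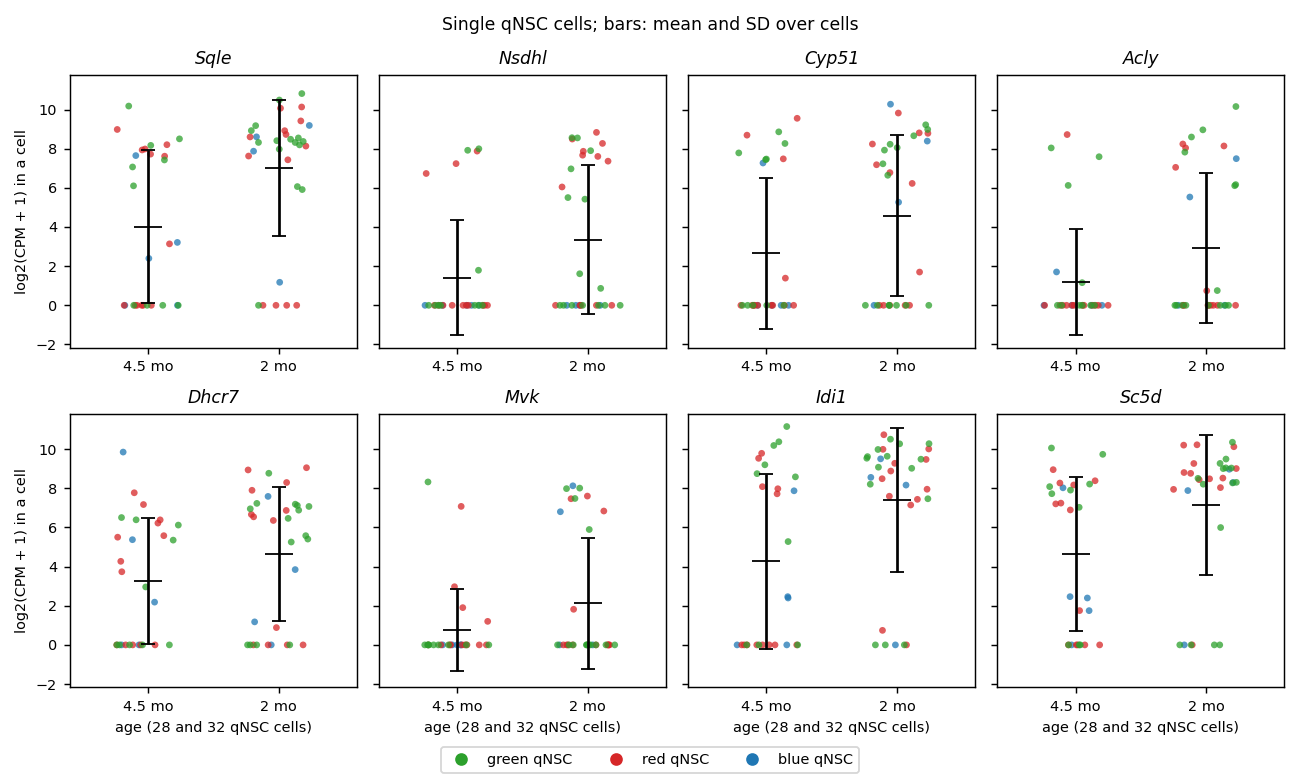
log2(CPM + 1) in single qNSC cells at 4.5 months (left in each panel, 28 cells) and 2 months (right, 32 cells) for the 6 called genes and for Idi1 and Sc5d; points are coloured by qNSC colour, and bars give mean and SD over cells. More cells lie at 0 at 4.5 months in every panel, and the cells with reads overlap between the ages.

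Idi1, the isomerase of the isoprenoid units, had a difference as large as that of Sqle, -3.14, but did not meet the rule, because its summed CPM were 334.9 at 4.5 months and 529.3 at 2 months. Its median was 4.39 CPM at 4.5 months and 494 CPM at 2 months, and reads were found in 53.6% and 84.4% of cells, yet its highest cell, at 2275 CPM, was a 4.5-month cell. Sc5d, a late desaturase of the sterol ring, was similar, at -2.49 with 221.7 summed CPM at 4.5 months and 396.6 at 2 months. Hmgcs1, which makes the precursor of mevalonate, differed by -1.65, Fdps, which joins the isoprenoid units, by -1.55 and Fdft1, which makes squalene, by -1.25, none with a 2-fold difference in summed CPM. Fdft1 shares exonic sequence with Ctsb on the opposite strand, a gene with 113417 reads here. Msmo1 went the other way: it was read in 96.4% of cells at 4.5 months and 87.5% at 2 months, with means of 9.85 ± 2.25 and 8.67 ± 3.87, a difference of 1.18, and 1481 and 1349 summed CPM. Pmvk, phosphomevalonate kinase, had 133.2 summed CPM at 4.5 months and 51.1 at 2 months, with a difference of 0.67 that did not meet the rule. The enzymes of the chain thus did not all lie to the same side, with Msmo1, the most abundant of them, above its 2-month mean and Sqle, Idi1 and Sc5d below theirs.

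No regulator met the rule. Srebf2, the SREBP gene most tied to sterol synthesis, differed by -1.18, with 29.5 summed CPM at 4.5 months and 52.6 at 2 months, and the other 5 measured regulators by -0.58 (Thrsp) to 0.56 (Insig1). Srebf1, which is tied more to fatty acid synthesis, differed by 0.02 and was read in 89.3% and 84.4% of cells at 4.5 and 2 months. Among the fatty acid genes other than Acly, differences ran from -0.96 (Fads1) to 0.83 (Elovl5), and Fasn stood at 0.46. Hsd17b7 and Stard4 were read in under 10% of cells at both ages. In a list of other genes of the pathway, 1 of 23 measured genes of sterol handling was called higher (Tmem97, a regulator of the sterol transporter Npc1, 1.46; 141.9 CPM at 4.5 months and 70.0 at 2 months) and 0 lower. Of 20 measured genes of fatty acid handling 0 were higher and 1 was lower: Elovl2, which elongates very long polyunsaturated chains, at -2.16 with 43.2 CPM at 4.5 months and 144.2 at 2 months. Of all genes 2.78% were called higher and 6.09% lower.

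Counted per cell, 1 to 14 of the 18 sterol enzymes were read in a qNSC cell at 4.5 months (median 8.5) and 1 to 16 at 2 months (median 11). Every cell was then thinned to 444835 counts, which left out 3 cells at 4.5 months and 2 at 2 months. After thinning the medians were 9 and 11. The means were 8.46 and 10.4 before thinning and 8.92 and 10.1 after it, a smaller gap. The part of depth in the gap was not tested. The summed TPM of the sterol enzymes had medians of 2859 at 4.5 months and 3022 at 2 months; without Msmo1 they were 1373 and 2289. For the 9 fatty acid enzymes the medians were 1109 TPM at 4.5 months and 1212 TPM at 2 months. By colour, the medians at 4.5 and 2 months were 9 and 11 in green and 9 and 12 in red cells, the same after thinning. In blue cells they were 6 and 11, but 10 and 11 after thinning, which left out 3 of the 5 blue cells at 4.5 months.

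**Figure D3:**
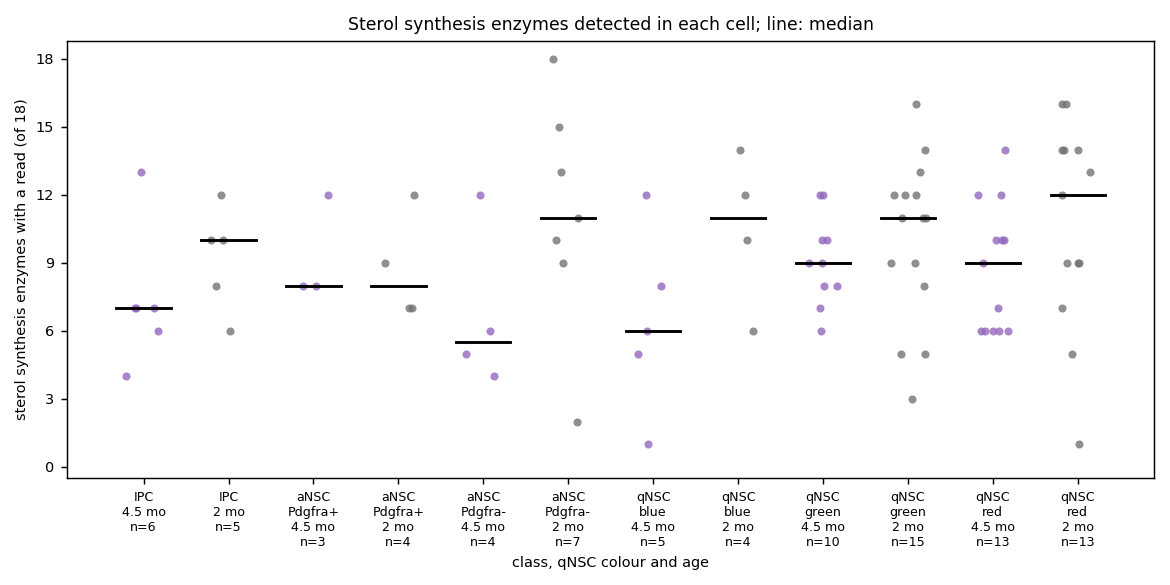
Number of the 18 sterol enzymes with a read in each cell (y axis), by class, qNSC colour and age (x axis, 4.5 months left of 2 months); lines are medians. One 2-month aNSC cell reached 18, and the 4.5-month median lies below that at 2 months in every group but the Pdgfra-positive aNSC cells, where both are 8.

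Within the colours the background was higher, and fewer cells were compared. In green cells 9.14% of 11478 measured genes were called higher and 11.4% lower at 4.5 months; among 33 measured members 5 were higher and 3 lower, with a median difference of -0.37 against 0.06 over all genes. The share of members called lower was under that of all genes, and the share called higher was above it. Sqle (-3.12), Dhcr7 (-2.19) and Mvk (-1.13) were lower. Higher were Pmvk (2.44; 164.3 summed CPM at 4.5 months and 38.9 at 2 months) and 4 genes of low level: Fasn (1.97; 56.1 and 12.5 CPM), Scap (1.52; 33 and 5.7 CPM), Acaca (1.17) and the desaturase Scd1 (1.00). Fasn was read in 6 of 10 green cells at 4.5 months and 3 of 15 at 2 months. Leaving out 1 cell ended the call of Scd1 for 15 of the 25 cells, of Mvk for 6, of Acaca for 5 and of Sqle and Fasn for 1 each; over these omissions 3 to 5 members were called higher and 2 to 6 lower.

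In red cells 9.07% of 9703 measured genes were called higher and 12.2% lower, and of 33 measured members 0 were higher and 7 lower; their median difference was -0.46, against -0.10 over all genes. Idi1 differed by -4.20: it was read in 5 of 13 red cells at 4.5 months (median 0 CPM, highest 881) and in 12 of 13 at 2 months (median 358 CPM, highest 1702). Sc5d differed by -3.92, with 156.7 summed CPM at 4.5 months and 463.3 at 2 months, and Nsdhl by -3.10, with 37 and 151.6 CPM. Srebf2 (-2.36), Sqle (-2.11), Acly (-1.81) and Dhcr7 (-1.14) were lower too; of these, 1 omitted cell ended the call of Dhcr7 in 12 and of Acly in 11 of 26 cases. In green cells Idi1 (-1.19), Sc5d (-0.49), Nsdhl (-1.25) and Srebf2 (-0.08) were not called; whether the age differences differ between colours was not tested. Sqle and Dhcr7 were the members called lower in both colours.

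Among other pathway genes in green cells, 3 of 22 measured genes of sterol handling were called higher and 3 lower. Of 21 genes of fatty acid handling 0 were higher and 4 lower, beside 9.14% and 11.4% of all genes. Mbtps2 and Nr1h2 were among the higher ones (1.49 and 1.6). Mbtps1, Nr1h3, Cyp46a1, Elovl2, Fads3, Hacd1 and Hsd17b12 were lower (-1.21 to -2.84). In red cells 3 of 23 measured genes of sterol handling were called higher and 1 lower. Of 18 genes of fatty acid handling 0 were higher and 2 lower, beside 9.07% and 12.2% of all genes. Scarb1, Npc1 and Abca1, which move cholesterol across membranes, were higher (1.71, 1.47 and 2.69), and Mbtps2, Elovl2 and Elovl4 lower (-1.08, -4.49 and -1.06). Elovl2 was thus lower in both, with 16.1 summed CPM at 4.5 months and 98.7 at 2 months in green and 34.2 and 244.5 CPM in red cells. Abca1 had 136.5 CPM at 4.5 months and 11.6 CPM at 2 months in red cells. The 5 and 4 blue cells are too few for calls: Scd2 differed by -4.70, Cyp51 by -4.53, Hmgcs1 by -4.27, Sqle by -4.06 and Idi1 by -4.01, while Nsdhl had no read at either age.

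**Figure D4:**
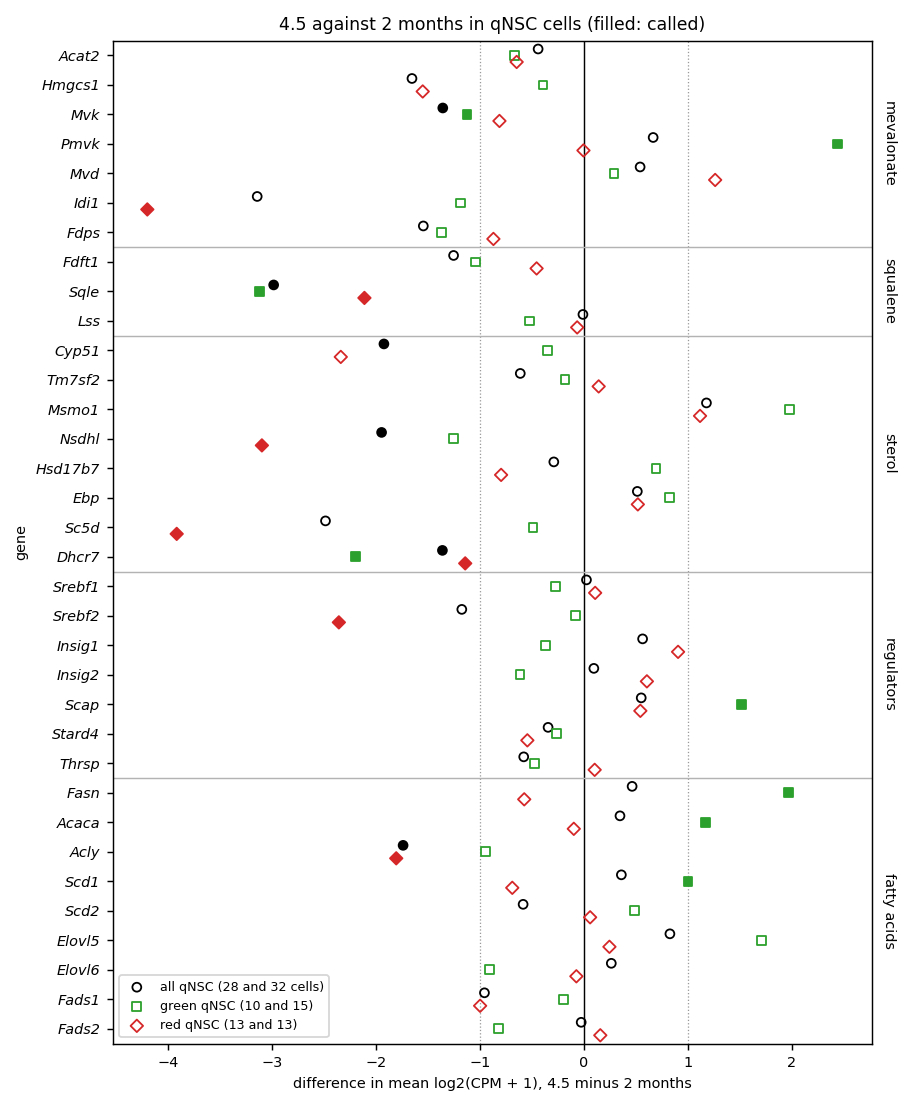
Difference in mean log2(CPM + 1) between 4.5 and 2 months (x axis) for the 34 genes by step, in all, green and red qNSC cells; filled symbols are called and dotted lines mark a difference of 1. Sqle and Dhcr7 are filled for all 3 sets of cells, Idi1 and Sc5d for red cells, and the filled symbols right of 0 are all green cells.

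Over all 41 and 48 cells, 3 of 33 measured members were called lower at 4.5 months and 0 higher, against 3.17% lower and 0.917% higher of 10573 genes. These were Sqle (-3.12), Mvk (-1.82; 11.8 and 52.7 CPM at 4.5 and 2 months) and Dhcr7 (-1.77; 35.3 and 98.0 CPM), and no single cell ended any of the 3 calls. The median difference of members was -0.44, against -0.19 over all genes. Outside the 34 genes, Elovl2 was called lower as well (-1.05; 52.9 CPM at 4.5 months and 108.4 CPM at 2 months).

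Few cells carried the age comparison in the other classes, so their values are given without calls. In the 4 Pdgfra-negative aNSC cells at 4.5 months Sqle stood at 5.01 CPM in 1 cell and 0 in 3; in the 7 cells at 2 months it stood at 0 in 1 and at 163 to 790 CPM in 6. Fdps was read in 1 of 4 cells at 4.5 months, at 58.8 CPM, and in 6 of 7 at 2 months, at 197 to 526 CPM. Mvk had no read in the 4 cells at 4.5 months, for which the limit of 3 counts is a share of 75% and the exact 95% interval ends at 60.2%, and was read in 5 of 7 cells at 2 months. Among the sterol enzymes 15 of 18 were lower at 4.5 months, with a median difference of -2.47 against -0.20 over all genes. Elovl5 was at 1.25 CPM in 1 of 4 cells at 4.5 months and at 759 to 2579 CPM in 5 of 7 at 2 months. The regulators Srebf1 (2.82) and Srebf2 (2.10) lay higher at 4.5 months, as did Acly (1.92), Fads2 (1.51) and Fads1 (1.36). These 2-month cells were the shallower ones, with a median total of 472000 counts, against 838586.5 at 4.5 months. One of them, with 343162 counts, had reads of all 18 sterol enzymes, which summed to 13103 TPM, and 5494 TPM of fatty acid enzymes; without it 12 of 17 measured sterol enzymes were lower and the median difference was -2.18.

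In IPC cells Sqle was read in 4 of 6 cells at 4.5 months and in 5 of 5 at 2 months, with means of 3.99 ± 4.08 and 8.14 ± 0.98 and a difference of -4.15. Elovl5 likewise was read in 3 of 6 and 5 of 5 cells (-4.00), and Idi1 (-3.88), Fasn (-3.50), Hmgcs1 (-3.40) and Acly (-3.10) were lower at 4.5 months, while Fdft1 (2.16) and Sc5d (2.20) were higher. Sqle was therefore lower in mean at 4.5 months in the IPC class, in Pdgfra-negative aNSC cells and in each qNSC colour. It was not in the Pdgfra-positive aNSC cells, where the 3 cells at 4.5 months stood at 0, 352 and 396 CPM and the 4 at 2 months at 0, 0, 138 and 556 CPM, with means of 5.70 ± 4.94 and 4.06 ± 4.76. This is a description over groups whose animals are not labelled.

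The classes were compared next, with ages pooled, to ask how synthesis genes stand in aNSC cells relative to qNSC cells. Lower in the aNSC class as a whole were 4 of the 8 enzymes of the sterol steps: Msmo1, Tm7sf2, Sc5d and Cyp51. The squalene synthase Fdft1, Elovl5 and Srebf1 were lower too. Of 33 measured members 7 were called lower and 0 higher, against 3.6% lower and 19.3% higher of 11543 genes. Of these 7, only Msmo1, Tm7sf2 and Elovl5 stayed called without the Pdgfra-positive cells, and Sc5d and Fdft1 changed sign. Among the older cells alone, the difference of Cyp51 changed sign as well. Over the whole class the median difference, aNSC minus qNSC, was -0.19 for members and 0.59 for all genes. A member at 0 therefore lies below the typical gene. How the classes were assigned is not given in the sources used here, and these differences are descriptions. Msmo1 ranged from 0 to 5551 CPM in aNSC cells (median 60.8) and from 0 to 4152 CPM in qNSC cells (median 1225), and its mean was 4.79 ± 4.38 in aNSC cells and 9.22 ± 3.25 in qNSC cells (SD, n = 18 and 60), a difference of -4.43. Elovl5 (-3.35) had 237.0 summed CPM in aNSC cells and 887.2 in qNSC cells. Tm7sf2, a sterol reductase whose exons overlap Vps51 on the same strand, was read in 3 of 18 aNSC cells and 29 of 60 qNSC cells (-2.40). Sc5d (-2.00), Fdft1 (-1.53), Cyp51 (-1.35) and Srebf1 (-1.33) followed; omission of 1 cell ended the call of Srebf1 in 10 of 78 cases and of no other. Acly lay higher in aNSC cells, read in 13 of 18 against 20 of 60 qNSC cells (2.77), but its summed CPM of 117.9 in aNSC and 80.8 in qNSC cells did not meet the rule. With the deposited TPM in place of CPM, 1 member was called higher and 3 lower. Without the 1 aNSC cell with reads of all 18 sterol enzymes, 8 members were called lower and 0 higher, and the median over members was -0.58.

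The aNSC class was not uniform in these genes. In the 7 Pdgfra-positive cells Thrsp had 25.1 summed CPM, against 1530 CPM in qNSC cells (-7.31), whereas in the 11 Pdgfra-negative cells it had 1434 CPM (-0.10). Sc5d was at 0 to 3.76 CPM in every Pdgfra-positive cell (1.09 summed CPM) and had 255.4 CPM in Pdgfra-negative and 321.0 CPM in qNSC cells. Fdft1 differed from qNSC cells by -4.04 in Pdgfra-positive and by 0.07 in Pdgfra-negative cells, Hmgcs1 by -3.82 and 0.02, and Srebf2 by -2.80 and 0.54. Other sterol enzymes were not low in the Pdgfra-positive cells: Dhcr7 was read in 7 of 7 (0.85), Nsdhl in 5 of 7 (1.86) and Idi1 in 6 of 7 (-0.03), and Acly was read in 6 of 7 (3.66). In all, 14 of 33 measured members were called lower and 0 higher in Pdgfra-positive cells against qNSC cells, beside 8.44% and 27.8% of all genes.

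In Pdgfra-negative aNSC cells 3 of 32 measured members were called lower than in qNSC cells and 2 higher, beside 4.07% and 17% of all genes; their median difference was 0.15, against 0.53 over all genes. Msmo1 (-3.22; 500.6 summed CPM against 1406 in qNSC cells), Elovl5 (-3.97) and Tm7sf2 (-2.04) were the lower ones. Insig2, which retains the SREBP escort, was higher (3.07): it was read in 7 of 11 cells, against 20 of 60 qNSC cells, with 223.8 and 65.1 summed CPM; Scd1 was higher too (1.25). Astrocyte markers summed to 495 to 2007 CPM in Pdgfra-positive cells (median 1065) and 126 to 32515 CPM in Pdgfra-negative cells (median 7730), ranges that overlap. S100b, among these markers, went the other way, with 10 reads in 7 of 7 Pdgfra-positive and 3 of 11 Pdgfra-negative cells. The part of these markers in the split was not tested.

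**Figure D5:**
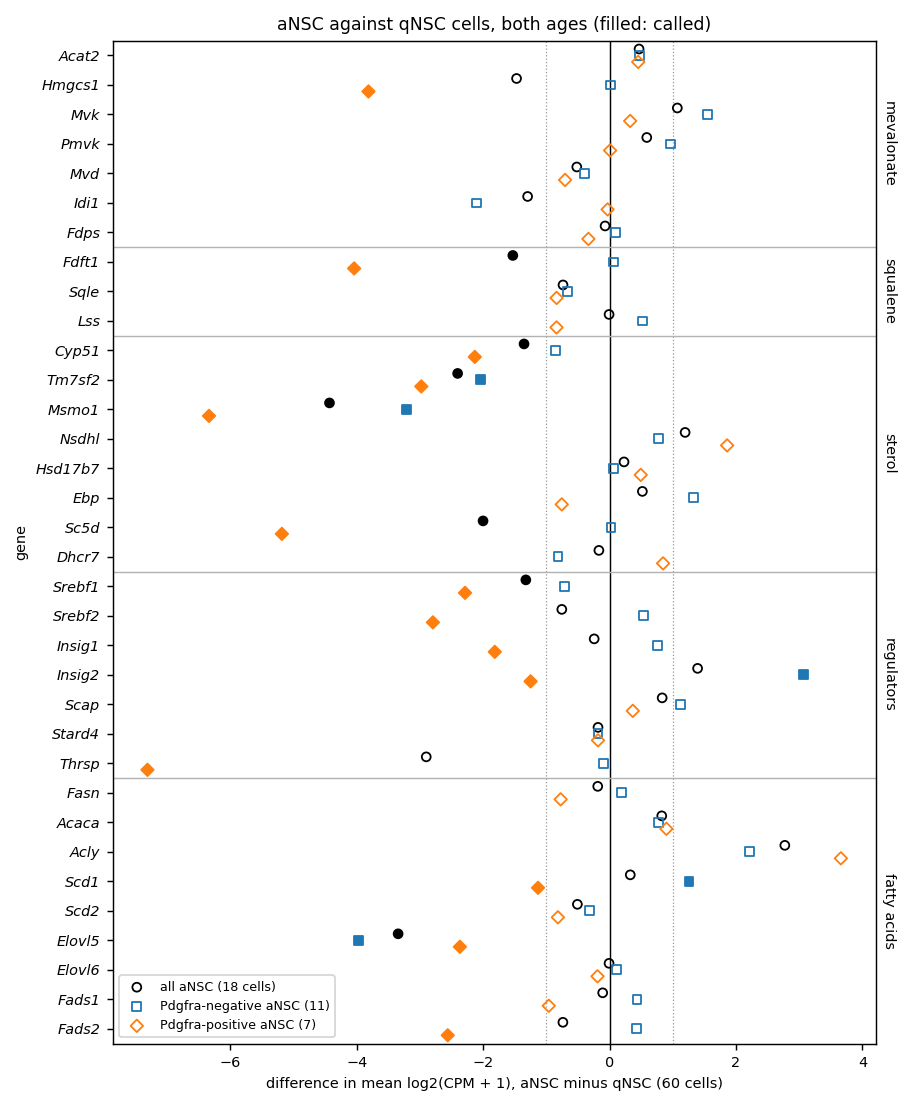
Difference in mean log2(CPM + 1), aNSC minus qNSC (x axis), for the 34 genes by step, with all 18, the 11 Pdgfra-negative and the 7 Pdgfra-positive aNSC cells; filled symbols are called and dotted lines mark a difference of 1. Thrsp, Sc5d, Fdft1, Hmgcs1 and Srebf2 lie far left for the Pdgfra-positive cells and between -1 and 1 for the Pdgfra-negative cells, while Msmo1 lies left for both.

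Other genes of sterol and fatty acid handling were called on both sides in aNSC against qNSC cells. Lbr, a sterol reductase with the activity of Tm7sf2, was higher in aNSC cells (1.6; 73.1 summed CPM and 13.9 CPM in qNSC cells), as were Mbtps1 (3.06), which cleaves SREBPs, and the transporters Scarb1 (3.15), Abca1 (1.71) and Abcg1 (1.37). Lower were Soat1 (-2.40), which esterifies cholesterol, Lcat (-4.49), Apoe (-2.33), Cyp46a1 (-1.20), Elovl2 (-1.54), Hacd2 (-3.62), Acsl3 (-4.10) and Acsl6 (-2.96). In the sterol-handling list 5 of 24 measured genes were higher and 4 lower, and in the fatty acid list 0 of 19 higher and 4 lower. Of all genes 19.3% were called higher and 3.6% lower, so the higher share in the sterol-handling list lies close to the background.

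IPC cells had more Cyp51, Hsd17b7 and, with ages pooled, Acly than aNSC cells, and less of Dhcr7, of the desaturases Fads2 and Scd2 and of 3 mevalonate enzymes. Of 33 measured members 3 were called higher and 7 lower in IPC cells, against 14.9% higher and 18.4% lower of 11633 genes, so the shares lie close to the background. Cyp51 was read in 8 of 11 IPC cells (median 332 CPM) and 7 of 18 aNSC cells (median 0), with means of 6.12 ± 3.96 and 2.32 ± 3.48, a difference of 3.80 (SD, n = 11 and 18), and 278.0 and 44.8 summed CPM. Hsd17b7, a ketoreductase of the sterol steps, was read in 5 of 11 IPC cells, 2 of 18 aNSC cells and 5 of 60 qNSC cells (2.49). Acly had 310.0 summed CPM in IPC cells and 117.9 in aNSC cells (1.97); its difference was 4.50 at 2 months and -0.76 at 4.5 months. Lower in IPC cells were Dhcr7 (-2.70; 11.6 CPM against 42.9 in aNSC cells), Fads2 (-2.28; 67.4 against 237.0 CPM), Scd2 (-2.24; 209.9 against 577.1 CPM), Mvd (-1.73), Scap (-1.54), Mvk (-1.49) and Hmgcs1 (-1.13). Omission of 1 cell ended the call of Hmgcs1 in 14 of 29 cases, that of Acly in 1 and no other.

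Against the Pdgfra-negative aNSC cells alone, 3 members were higher and 13 lower in IPC cells, beside 20.6% and 19.2% of all genes; Cyp51 (3.31), Hsd17b7 (2.66) and Acly (2.53, but -0.10 within 4.5 months) were the higher ones, and the regulators Srebf1 (-2.35), Srebf2 (-2.02), Insig1 (-1.92) and Scap (-1.84) were among the lower. Thus Cyp51 stood highest in IPC cells while Msmo1, which acts beside it, stood highest in qNSC cells, with 198.4 summed CPM in IPC, 290.9 in aNSC and 1406 in qNSC cells. Among other pathway genes, Lbr (2.65), Tmem97 (2.23), Osbp (1.61) and Soat1 (1.09) were higher in IPC than in aNSC cells. In the sterol-handling list 4 of 23 measured genes were called higher and 9 lower than in aNSC cells. Of all genes 14.9% and 18.4% were called higher and lower in that comparison. Among the lower were Lrp1 (-3.64), Npc1 (-3.18), Abca1 (-2.88) and Vldlr (-1.35), the last with no read in the 11 IPC cells. Also lower were Apoe (-3.71; 1706 CPM in IPC cells and 7504 in aNSC cells), Lcat (-3.63), Mid1ip1 (-3.34), Acss2 (-3.27), Cyp46a1 (-2.43), Me1 (-2.41), Acsl3 (-1.57), Fabp7 (-1.46), Acsl6 (-1.44), Nr1h3 (-1.11) and Fads3 (-1.03).

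The colours of qNSC cells were compared last. Green cells had more Idi1 and Acly than red cells and less Insig1, Insig2 and Fasn. Of 33 measured members these 2 were called higher and these 3 lower, against 8.5% higher and 4.85% lower of 10160 genes, shares near the background, and the median difference was -0.16 for members and 0.05 for all genes. Insig1, a brake on SREBP release, was at 47.7 summed CPM in green and 159.0 in red cells (-1.87), and Insig2 at 17.7 and 118.3 CPM (-1.86). Fasn had 28.4 CPM in green and 108.2 CPM in red cells (-1.49). Idi1 was at 637.9 CPM in green and 308.8 CPM in red cells (1.65), a call that 14 of 51 single omissions ended, and Acly at 120.3 and 50.4 CPM (1.28). Within ages, Idi1 differed between the colours by 0.02 at 2 months and by 3.04 at 4.5 months, and Fasn by -0.02 at 4.5 months and by -2.56 at 2 months. With TMM scaling or the deposited TPM 1 member was called higher and 3 lower. Of the other pathway genes Fads3 (1.12) and Fabp7 (3.28) were higher in green cells and Me1 (-2.12), Elovl2 (-1.64) and Hacd2 (-3.88) were lower. Astrocyte markers had a median sum of 17464 CPM in green and 30145 CPM in red cells; their part in these differences was not tested.

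Between the 9 blue cells and the other 51 qNSC cells, 4 of 33 measured members were called lower and 1 higher, against 16.9% and 4.13% of 11222 genes, so both shares were under the background. The median difference was -0.77 for members and -0.30 for all genes, but -0.09 and -0.25 in cells thinned to equal depth. Among the sterol enzymes the median was -1.72 at 4.5 months, with 15 of 17 lower in blue cells, and 0.04 at 2 months, with 8 of 18 lower. Nsdhl was read in 0 of 9 blue cells, for which the limit of 3 counts is 33.3% and the exact 95% interval ends at 33.6%, and in 22 of 51 others (-2.88). Acat2, which makes acetoacetyl-CoA at the entry of the pathway, had 67.1 summed CPM in blue cells and 150.6 in the others (-2.04), Idi1 223.9 and 475.7 CPM (-1.90) and Srebf2 17.7 and 46 CPM (-1.28). Elovl6, which elongates saturated chains, was the higher one (1.42), but 1 of the 9 cells held 4007 CPM and 6 held 0; leaving out single cells brought its difference down to 0.21. Single omissions ended the call of Acat2 in 4, Idi1 in 4 and Elovl6 in 2 of 60 cases and gave 2 to 8 members called lower. With TMM scaling 1 member was called higher and 1 lower, and with the deposited TPM 1 and 9; blue cells at 4.5 months had a median total of 442931 counts. Of the other genes, Npc1 (1.48) and Hacd2 (3.21) were higher in blue cells, and Scarb1 (-1.27), Soat1 (-1.72), Osbpl2 (-2.02), Acss2 (-2.63), Slc25a1 (-3.15), the citrate carrier that feeds Acly, and Fabp7 (-4.67) lower.

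Whether members vary together was described over single qNSC cells within each age, by Pearson's r of log2(CPM + 1) between a gene and the mean of the other sterol enzymes; cells share library chemistry and depth, and no p is given. At 4.5 months (28 cells) r was highest for Sqle (0.57), Hmgcs1 (0.56) and the fatty acid synthase Fasn (0.55). It was -0.23 for Ebp, -0.01 for Dhcr7 and 0.13 for Fdps. At 2 months (32 cells) it was highest for Fdps (0.69), Sc5d (0.66) and Fdft1, Dhcr7 and Msmo1 (0.57 each), and 0.15 for Fasn. Srebf2 stood at 0.39 at 4.5 months and 0.50 at 2 months, Srebf1 at 0.15 and 0.03, and Thrsp, the most abundant member, at 0.28 and -0.01. The sterol mean followed log2 of the total count with r = 0.53 at 4.5 months and -0.04 at 2 months, so that depth moved with it at 4.5 months.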

How the data were processed

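Single cells were profiled by SMART-Seq v4, 89 in all, and each cell is 1 deposited sample. The authors deposited estimated counts per gene and TPM for every cell, made with STAR and RSEM on mm10 per the submitters' processing notes; versions, strand setting and filters are not given in the sources used here. Of the nonzero estimated counts, 4.44% were not whole (tolerance 1e-06). All counts were rounded to whole numbers before totals, CPM, shares of cells and calls were computed. Classes and colours came from the deposited table of groups, and ages from the labels.

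Counts were scaled to CPM, and group means of log2(CPM + 1), the CPM of summed counts with exact Poisson 95% intervals and the percentage of cells in which a gene was read, with Clopper-Pearson 95% intervals, were computed. The Poisson intervals cover the counting of reads only, and leave out the spread over cells. The Clopper-Pearson intervals, and the limit of 3 counts for a zero, treat cells as independent draws. None of them covers the spread between animals. Genes read in 10% or more of either group's cells were measured, and called at a log2 difference of at least 1 with a 2-fold summed difference in the same direction. With no animal labels, no p-value was computed. The calculation was tested on simulated data, with differences put only into genes read in most qNSC cells. No difference was put into genes read in fewer cells, so the test does not cover rarely read members. The rule for named genes took all 34 members and, outside them, the called genes of a list of other pathway genes and markers that move with a result (a few are not reported here); it gave values in full for up to 6 called members of a comparison. Members and lists were chosen with earlier results of these data known. Alternatives covered pseudocount, TMM scaling, TPM, thinning, the filter, medians and omitted cells. Promoters are from RefSeq, gene positions from GENCODE. Python 3.11.15, numpy 2.4.6, pandas 2.3.3, scipy 1.17.1, matplotlib 3.10.9, R 4.3.3 and edgeR 4.0.16 (TMM factors only) were used.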

Additional observations from a re-analysis of the deposited data

How the results depend on the processing

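Counts of called members moved with several choices, and the causes were not tested. For age in qNSC cells, medians over cells gave 3 lower against 6, and 1 member was called higher with thinned cells, with medians or in cells of at least 500000 counts and 2 without blue cells, against 0. Of the 6 calls, pseudocount 10 ended those of Dhcr7 and Mvk, TPM that of Dhcr7, thinning that of Cyp51, the 500000 minimum that of Nsdhl, leaving out blue cells those of Cyp51 and Mvk, the 50% filter those of Acly and Mvk, and medians those of Nsdhl, Acly and Mvk.

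For green against red cells (2 higher, 3 lower), pseudocount 10, TMM scaling and TPM each gave 1 higher and thinning 0; the 50% filter and medians gave 1 higher and 1 lower; 2-month cells gave 1 higher and 7 lower, and 4.5-month cells 4 higher. For blue against other cells (1 higher, 4 lower), TMM scaling gave 1 lower, TPM 9 lower and thinning 2 higher and 2 lower; the 50% filter and medians gave 0 higher; 2-month cells gave 5 higher, and 4.5-month cells 2 higher and 9 lower. Elovl6 reversed to -0.80 in 2-month cells.

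For aNSC against qNSC cells (0 higher, 7 lower), pseudocount 0.1 gave 1 higher, TPM 1 higher and 3 lower, omission of Pdgfra-positive cells 2 higher and 3 lower, 2-month cells 4 higher and 4.5-month cells 2 higher. Without Pdgfra-positive cells Sc5d stood at 0.0225 and Fdft1 at 0.066, and in 4.5-month cells Cyp51 stood at 0.41, each reversed. For IPC against aNSC cells (3 higher, 7 lower), pseudocount 10 gave 3 lower, the 50% filter 4 and medians 2. Without Pdgfra-positive cells 13 were lower; 2-month cells gave 5 higher, or 5 higher and 14 lower without Pdgfra-positive cells, and 4.5-month cells 5 higher, or 9 without Pdgfra-positive cells. Acly reversed in 4.5-month cells to -0.76, and to -0.10 without Pdgfra-positive cells.

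Of the values of single called genes under all alternatives, 307 kept direction and call, 58 no longer met the rule without changing sign (medians of 0 and genes under the 50% filter included) and 6 reversed. No paired analysis was possible because the labels do not tie cells to animals. The number of cells, and the share of them with no read of a gene, limit every comparison.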
